A study of Mus musculus with 10 samples.

Results

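Dmp1, Phex, Mepe, Sost, Pdpn and Fgf23 are 6 genes by which osteocytes, the cells buried in bone matrix, are commonly recognised. They were taken by gene symbol from the probe sets with exactly 1 annotated symbol. Each of the 6 had 1 such probe set, out of 19938 genes measured in all. RNA came from OBCs (osteoblastic lineage cells, which build bone, with the progenitors that give rise to them), released from crushed bone by collagenase and sorted. Each mouse had its own array. The BA group was 5 Scl-tTA::TRE-BCR/ABL mice, in which Scl regulatory sequence drives a doxycycline-repressed transactivator that switches on BCR/ABL. The control group was 5 age-matched mice labelled as controls, whose genotype the labels do not state. Both groups had the C57BL/6 strain label, were taken off doxycycline at 5 weeks of age and were sampled 5 to 6 weeks later, by which time BA mice are described as diseased, with a myeloproliferative neoplasm. The Scl gene is known for its activity in blood stem and progenitor cells. Values are the authors' log2 expression values, and a difference of 1 is a doubling.

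Osteocytes arise when osteoblasts become enclosed in the matrix they secrete. They act as endocrine cells for phosphate and as brakes on bone formation. Fgf23 encodes a hormone that makes the kidney excrete phosphate, while loss of Phex, an endopeptidase-like membrane protein, or of Dmp1, an acidic matrix protein, is known to raise Fgf23 in bone. Mepe encodes a matrix protein of the same SIBLING family as Dmp1. Sost encodes sclerostin, which blocks Wnt signalling at Lrp5 and Lrp6. Pdpn encodes podoplanin (E11), a membrane glycoprotein of early osteocytes needed for their dendrites, which fibroblastic stroma and lymphatic endothelium also make.

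The upstream sequences of Phex, Pdpn and Dmp1 are shown because these genes had the widest BA minus control differences of the 6. They are the 250 bases before each annotated start, from RefSeq on build GRCm38.p6, and all 6 genes matched that table. Capitals mark every match, on either strand, to TGTGGT (the RUNX core), TGANTCA (AP-1) or CACGTG (an E-box). Phex lies on the minus strand at chrX:157415287-157415536, Pdpn on the minus strand at chr4:143299565-143299814, and Dmp1 on the plus strand with starts after chr5:104197325-104197574 and chr5:104202367-104202616.
Phex: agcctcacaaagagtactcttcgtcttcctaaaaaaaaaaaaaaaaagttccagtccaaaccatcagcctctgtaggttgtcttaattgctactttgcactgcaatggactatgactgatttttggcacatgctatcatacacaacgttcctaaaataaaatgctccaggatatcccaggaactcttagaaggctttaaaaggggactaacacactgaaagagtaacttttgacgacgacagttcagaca
Pdpn: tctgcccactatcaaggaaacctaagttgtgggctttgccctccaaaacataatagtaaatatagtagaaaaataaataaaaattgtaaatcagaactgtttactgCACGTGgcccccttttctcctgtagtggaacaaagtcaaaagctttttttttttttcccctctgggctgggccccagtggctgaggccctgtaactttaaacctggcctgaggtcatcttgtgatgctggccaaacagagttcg
Dmp1, first start: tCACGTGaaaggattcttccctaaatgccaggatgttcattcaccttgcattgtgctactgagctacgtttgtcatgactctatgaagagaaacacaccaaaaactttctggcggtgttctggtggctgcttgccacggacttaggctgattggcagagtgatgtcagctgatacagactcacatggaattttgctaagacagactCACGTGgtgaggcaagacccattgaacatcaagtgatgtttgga
Dmp1, second start: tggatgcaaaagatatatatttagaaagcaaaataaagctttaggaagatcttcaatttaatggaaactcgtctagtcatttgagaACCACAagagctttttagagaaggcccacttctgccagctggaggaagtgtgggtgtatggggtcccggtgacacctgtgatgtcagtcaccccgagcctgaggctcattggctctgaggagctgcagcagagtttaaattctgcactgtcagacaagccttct
The Phex window held none of these motifs. The Pdpn window held 1 CACGTG, 144 bases before the start, and the first Dmp1 window held 2, at 249 and 44 bases. CACGTG was present in 6.02% of 32851 such windows. The second Dmp1 window held 1 RUNX core, as its complement, 164 bases before the start, and 14.0% of the windows held that motif. A TGANTCA match was in 6.75% of the windows and in none of these shown. The array has 1 probe set for Dmp1 and does not tell its starts apart.

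None of the 6 genes passed an adjusted p of 0.05 over all genes (limma with Benjamini-Hochberg adjustment), against 0.00502% of genes in the background, a single gene. Phex, Dmp1, Mepe, Fgf23 and Sost averaged lower in BA cells and Pdpn averaged higher. At an unadjusted p under 0.05 there were 3 of the 6, Phex, Dmp1 and Fgf23, all lower, where 9.4% of all genes passed (5.27% lower and 4.13% higher). Without control replicate 3 or control replicate 5 none of the 6 passed the unadjusted threshold (limma), and without BA replicate 3 or BA replicate 5 only 1 did. Over all genes, 834, 855, 729 and 676 were lower at that threshold in these fits, in that order, against 1051 with all arrays. Those higher numbered 717, 785, 625 and 717, against 824 with all arrays. For 0 of the 6 did the groups stand fully apart, against 1.67% of all genes. The array medians lay between 5.91 and 6.02, and Pearson's r between arrays across genes was 0.889 to 0.957. Of all genes, 62.1% averaged lower in BA cells, with a median difference of -0.06. In sorted bulk RNA, fewer cells of a type and less RNA per cell cannot be told apart.

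**Figure D1:**
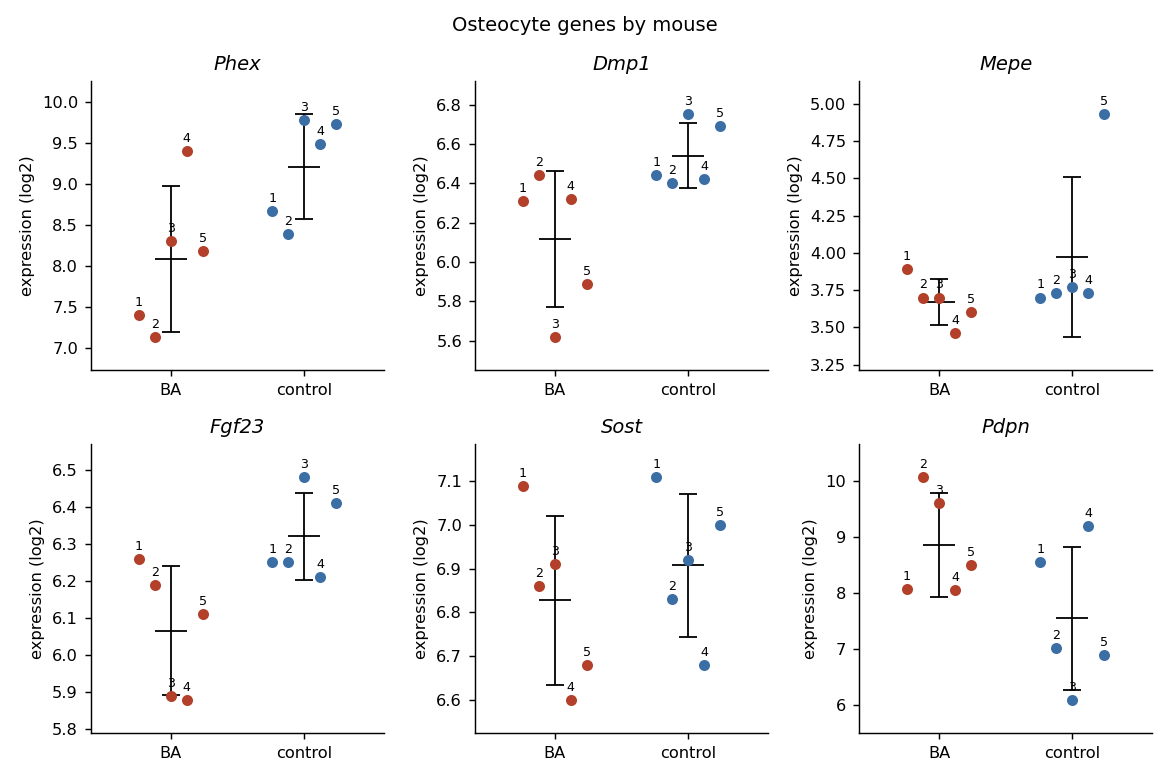
Expression (log2) of each osteocyte gene in 5 BA mice and 5 control mice, with its own vertical scale per gene; points are mice with their replicate number, and the bar is the mean ± SD. Phex, Dmp1 and Fgf23 each had 4 BA mice below every control mouse, and Pdpn had 3 control mice below every BA mouse.

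Phex showed the widest lower difference. It read 7.41, 7.14, 8.31, 9.40 and 8.19 in BA replicates 1 to 5, against 8.67, 8.39, 9.78, 9.49 and 9.73 in control replicates 1 to 5. Every BA mouse except replicate 4 lay below every control mouse, and BA replicate 4 lay within the control range. The means were 8.09 ± 0.89 in BA cells and 9.21 ± 0.64 in control cells (SD, n = 5 each). The difference was -1.12 ± 0.44 (SE), or 2.18-fold lower, with a 95% interval of -2.09 to -0.16 (adjusted p = 0.501, limma). The exact permutation test over the 10 arrays, two-sided, gave p = 0.0397, where the smallest p it allows is 0.00794. Without BA replicate 4 the difference was -1.45, and over the other single arrays left out it lay between -1.33 and -0.88.

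Dmp1 differed less in size. It read 6.31, 6.44, 5.62, 6.32 and 5.89 in BA replicates 1 to 5, against 6.44, 6.40, 6.75, 6.42 and 6.69 in control replicates 1 to 5. Every BA value except that of replicate 2 lay below every control value, while BA replicate 2 equalled control replicate 1. The means were 6.12 ± 0.35 in BA cells and 6.54 ± 0.17 in control cells (SD, n = 5 each). Dmp1 thus differed by -0.42 ± 0.17 (SE), with a 95% interval of -0.79 to -0.06 (adjusted p = 0.506, limma). The exact permutation p, two-sided, was 0.0317.

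Mepe lies in the same SIBLING gene cluster as Dmp1, where the order of protein-coding genes is Dspp, Dmp1, Ibsp, Mepe and Spp1. It read between 3.46 and 3.89 in BA mice (median 3.70), and 3.70, 3.73, 3.77, 3.73 and 4.93 in control replicates 1 to 5. Control replicate 5 alone stood above the rest, and the other 9 arrays overlapped. The difference was -0.30 ± 0.23 (SE, adjusted p = 0.628, limma; n = 5 each), and without control replicate 5 it was -0.06. On that same array the endothelial markers Pecam1 and Tek read 6.94 and 5.61, against 5.66 to 5.76 and 4.54 to 5.07 on the other control arrays. Of the 8 endothelial markers, 4 read above every other control array there and 4 lay within their range. The r of Mepe with the mean of these 8 over the 10 arrays was 0.830, and 0.817 with group means removed. It was the highest r of any of the 6 genes with a marker list. Control replicate 5 was the highest array in both, and the part of these markers in the Mepe value was not tested further.

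Fgf23, the phosphate hormone gene, read 6.26, 6.19, 5.89, 5.88 and 6.11 in BA replicates 1 to 5, against 6.25, 6.25, 6.48, 6.21 and 6.41 in control replicates 1 to 5. BA replicate 1 alone reached into the control range. The means were 6.07 ± 0.17 in BA cells and 6.32 ± 0.12 in control cells (SD, n = 5 each). The difference of -0.25 ± 0.11 (SE) had a 95% interval of -0.49 to -0.02 (adjusted p = 0.508, limma), and the exact permutation p, two-sided, was 0.0317. The whole span of Fgf23 over the 10 arrays was 0.60, below the median span of 0.81 over all genes. Its mean over these arrays, 6.19, lay near the median gene mean of 6.15.

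Sost gave no separation of the groups. It read 7.09, 6.86, 6.91, 6.60 and 6.68 in BA replicates 1 to 5, against 7.11, 6.83, 6.92, 6.68 and 7.0 in control replicates 1 to 5. The highest and lowest mice of each group were close to those of the other. The difference was -0.08 ± 0.12 (SE, adjusted p = 0.801, limma; n = 5 each), and its 95% interval, -0.35 to 0.19, corresponds to a ratio of BA to control between 0.785 and 1.14.

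Pdpn was the 1 gene of the 6 with a higher mean in BA cells and had the widest spread of them. It read 8.07, 10.07, 9.60, 8.05 and 8.49 in BA replicates 1 to 5, against 8.55, 7.01, 6.09, 9.19 and 6.88 in control replicates 1 to 5. BA replicates 2 and 3 lay above every control mouse, control replicates 2, 3 and 5 below every BA mouse, and the rest overlapped. The means were 8.86 ± 0.93 in BA cells and 7.54 ± 1.28 in control cells (SD, n = 5 each). The difference of 1.31 ± 0.63 (SE), or 2.48-fold, had a 95% interval of -0.07 to 2.70 (adjusted p = 0.533, limma), and the exact permutation p, two-sided, was 0.119. The spread of Pdpn within the groups, a pooled SD of 1.12, exceeded that of 98.0% of genes. For Fgf23 (0.15) that share was 15.3%. Of the markers of lymphatic endothelium, which also makes podoplanin, Lyve1 read 5.98 to 6.47 in BA mice and 5.91 to 6.25 in control mice. Prox1 read 4.70 to 5.42 in BA mice and 5.03 to 5.45 in control mice. Of the 4 measured, 2 averaged higher and 2 lower in BA cells. Flt4 alone was lower at an unadjusted p under 0.05 (limma), where 5.27% of all genes were. It read 5.20 to 5.31 in BA mice and 5.24 to 5.71 in control mice (adjusted p = 0.482, limma). The r of Pdpn with the mean of 4 such markers over the 10 arrays, which share their normalization, was -0.171, and their part in the Pdpn difference was not tested further.

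**Figure D2:**
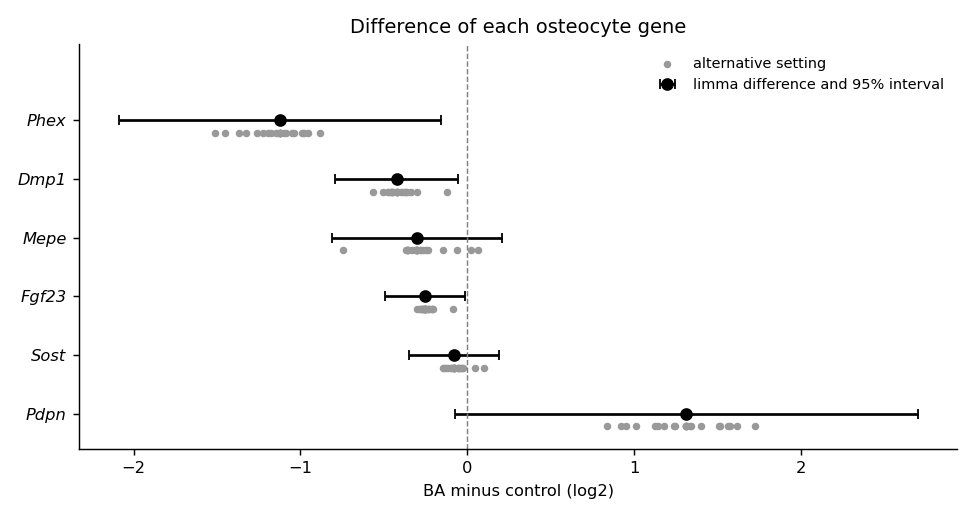
BA minus control difference (log2) of each osteocyte gene. Black points with bars are the limma difference and its 95% interval, and grey points are the same difference under each alternative setting, without intervals. Phex, Dmp1 and Fgf23 kept a lower and Pdpn a higher mean in BA cells under each of the 23 settings, while Mepe and Sost had points on both sides of 0.

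Xist, made from the silenced X chromosome of females, was high on 3 BA and 2 control arrays and low on 2 BA and 3 control arrays, so the groups held unequal numbers of each. Phex is itself X-linked. Its difference was -1.37 within the high-Xist arrays and -1.09 within the low-Xist arrays. The corresponding values were -0.34 and -0.57 for Dmp1, -0.25 and -0.25 for Fgf23, and 0.84 and 1.62 for Pdpn. For Mepe they were -0.74 and 0.06, and for Sost -0.13 and 0.05, so the sign of these last differences was not shared. Without control replicate 5 the Mepe difference within the high-Xist arrays was -0.14.

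The genes were also compared with each other across the 10 arrays. Over the 15 pairs, Dmp1 and Fgf23 had the highest Pearson's r, 0.782 (permutation p = 0.00943, adjusted p = 0.141 over 15 pairs), with Spearman's rho 0.680 (permutation p = 0.0342, adjusted p = 0.180). Their r was 0.602 with group means removed and 0.782 without BA replicates 3 and 5, the arrays farthest from the median of Dmp1. Mepe and Fgf23 had rho 0.880 (permutation p = 0.0011, adjusted p = 0.0165), but r 0.546 (permutation p = 0.127, adjusted p = 0.342), and r 0.431 without control replicate 5 and BA replicate 4. Phex and Dmp1 had r 0.424 (permutation p = 0.225, adjusted p = 0.388), rho 0.584 (permutation p = 0.0808, adjusted p = 0.180), and r 0.02 with group means removed. Without BA replicates 3 and 5 that r was 0.561.

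Dmp1 and Fgf23 also moved with genes that have no known place in bone. The mean of 1027 olfactory receptor genes, odour sensors of the nose picked after the values had been seen, averaged 4.35 ± 0.10 in BA cells and 4.47 ± 0.07 in control cells (SD, n = 5 each), and 864 of the 1027 averaged lower in BA cells. Dmp1 followed that mean with r = 0.861 (permutation p = 0.00031, adjusted p = 0.00186 over the 6 genes), rho 0.845 (permutation p = 0.00338, adjusted p = 0.0101), r 0.763 with group means removed, and r 0.705 without BA replicates 3 and 5. Fgf23 followed it with r = 0.876 (permutation p = 0.00076, adjusted p = 0.00228), rho 0.8875 (permutation p = 0.00104, adjusted p = 0.00624), r 0.785 with group means removed, and r 0.8905 without the same arrays. The r was 0.648 for Mepe (permutation p = 0.00575, adjusted p = 0.0115), with rho 0.714 (permutation p = 0.0235, adjusted p = 0.0428) and r 0.743 without those arrays. For Sost r was 0.669 (permutation p = 0.0370, adjusted p = 0.0554), which did not pass 0.05. Its rho was 0.699 (permutation p = 0.0285, adjusted p = 0.0428), which did, and r was 0.825 without them. Phex, at r = 0.190 (permutation p = 0.595, adjusted p = 0.595; rho 0.406, permutation p = 0.249, adjusted p = 0.249; r 0.04 without them), and Pdpn, at r = -0.502 (permutation p = 0.142, adjusted p = 0.171; rho -0.515, permutation p = 0.136, adjusted p = 0.163; r -0.387 without them), did not pass. With group means removed, r with the olfactory mean was 0.561 for Mepe, 0.687 for Sost, -0.346 for Phex and -0.240 for Pdpn. With the olfactory mean as a covariate, an alternative chosen after seeing the data, the difference was -0.12 for Dmp1 (unadjusted p = 0.456, limma) and -0.08 for Fgf23 (unadjusted p = 0.445, limma). It was -1.51 for Phex (unadjusted p = 0.0247, adjusted p = 0.953, limma) and 0.92 for Pdpn (unadjusted p = 0.299, limma). Over all genes, 581 were higher and 415 lower at an unadjusted p under 0.05 in that fit (limma), against 824 and 1051 without the covariate. The olfactory mean itself differed between the groups, so the fit cannot separate it from the group difference, and no conclusion is drawn from it.

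**Figure D3:**
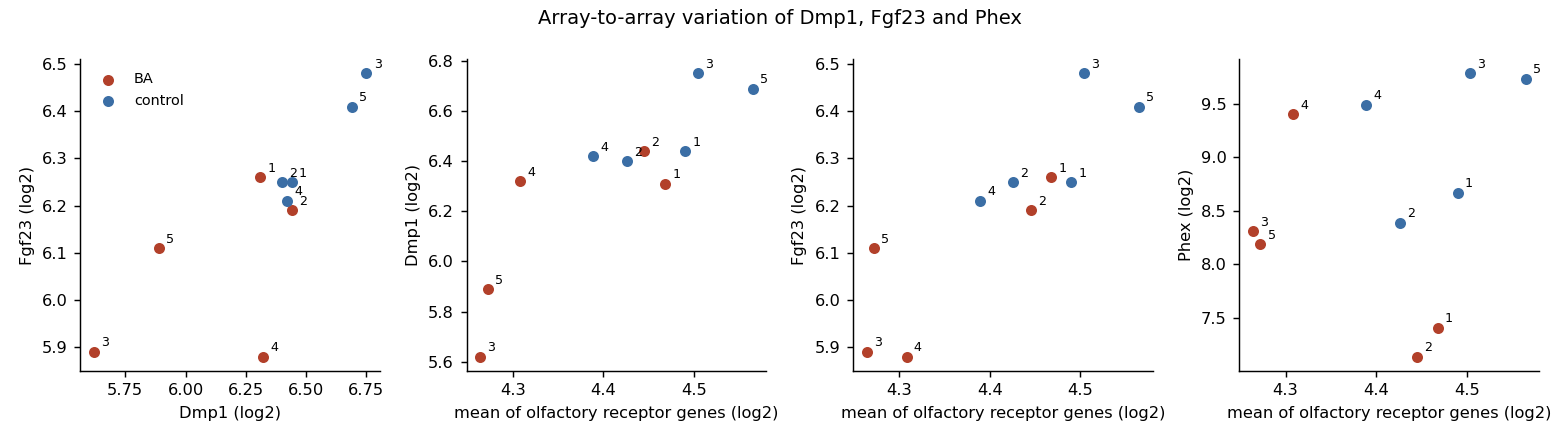
Expression (log2) of Dmp1 against Fgf23 in the left panel, and of Dmp1, Fgf23 and Phex against the mean of 1027 olfactory receptor genes in the other panels; points are mice, coloured by group and numbered by replicate. Dmp1 and Fgf23 climb with the olfactory mean (r = 0.861 and 0.876), and Phex scatters (r = 0.190).

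Among 9377 named genes brighter on average than the median gene, the profiles most like that of Phex over the 10 arrays were those of Habp4 (r = 0.908), Zc3h12c (0.906), Synm, an intermediate filament protein (0.893), and Cav1, the caveolar coat protein (0.887). Cav1 differed by -0.98 ± 0.31 (SE) and Zc3h12c by -1.58 ± 0.58, and neither passed (adjusted p = 0.471 and 0.484, limma). With group means removed, r to Phex was 0.804 for Cav1 and 0.841 for Zc3h12c. Closest to Pdpn were Tollip, an adaptor of Toll-like receptor signalling (r = 0.957), Naa30, an N-terminal acetyltransferase subunit (0.920), Ubap2 (0.914) and Chsy3, a chondroitin sulfate synthase (0.907). Closest to Dmp1 were Grm2, a glutamate receptor (0.960), Bmerb1 (0.940), the Wnt feedback gene Axin2 (0.934) and Syt13 (0.930). Closest to Fgf23 were Igdcc3 (0.967), Adad2 (0.951), Irs3 (0.942) and Pramel32 (0.942). Closest to Sost were Ifnlr1 (0.959), the pseudogene Cyp2d37-ps (0.931), whose reading may include its gene family, Oplah (0.929) and Lyl1 (0.924). These genes were picked for their r from all of these, so no p is given.

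In the pathways around these proteins no gene passed the adjusted threshold in either direction (limma). Of 4 measured SIBLING genes, Dmp1 and Mepe among them, all 4 averaged lower in BA cells, with a median difference of -0.22. Of all genes, 62.1% averaged lower. The integrin-binding sialoprotein gene Ibsp differed by -0.01 ± 0.08 (SE) and the dentin gene Dspp by -0.13 ± 0.12. Of 12 genes of FGF23 and phosphate control, Fgf23 and Phex among them, 5 averaged higher, 6 lower and 1 equal (median -0.04). Fam20c, the kinase that phosphorylates secreted matrix proteins and FGF23, averaged 8.10 ± 0.49 in BA cells and 7.57 ± 0.39 in control cells (SD, n = 5 each; adjusted p = 0.533, limma). Galnt3, whose enzyme glycosylates FGF23 and shields it from cleavage, averaged 6.98 ± 0.79 and 6.39 ± 0.51 in BA and control cells (adjusted p = 0.584, limma). The FGF23 co-receptor gene Kl differed by -0.13 ± 0.09 (SE) and the vitamin D receptor gene Vdr by -0.34 ± 0.22.

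Of 8 mineralization enzymes and transporters, 7 averaged higher (median 0.32), with 1 at an unadjusted p under 0.05, where 9.4% of all genes passed. That gene was Mgp, an inhibitor of calcification. It read 12.67 to 12.83 in BA mice and 12.15 to 12.50 in control mice, so the groups did not overlap, as for 1.67% of all genes (difference 0.40 ± 0.09, SE; adjusted p = 0.384, limma). Alpl, the tissue-nonspecific alkaline phosphatase, differed by 0.47 ± 0.27 and Smpd3, a sphingomyelinase of mineralizing tissue, by 0.41 ± 0.28. Of 8 sclerostin pathway genes, Sost among them, 6 averaged lower (median -0.23). The Wnt antagonist gene Dkk1 read 6.01 to 6.50 in BA mice and 6.33 to 6.78 in control mice (difference -0.36 ± 0.13, SE; adjusted p = 0.483, limma). The receptor genes Lrp4 and Lrp6 differed by -0.32 ± 0.20 and -0.35 ± 0.22, and Axin2 by -0.18 ± 0.11.

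Of 8 genes of podoplanin and its partners, 5 averaged higher (median 0.16), with 2 at an unadjusted p under 0.05 (9.4% of all genes), both cytoskeletal or surface partners. Ezr, encoding ezrin, which ties podoplanin to actin, read 9.0, 8.54, 8.86, 8.11 and 9.10 in BA replicates 1 to 5, against 8.13, 7.89, 8.09, 7.92 and 7.89 in control replicates 1 to 5. Every BA mouse except replicate 4 lay above every control mouse, and the difference was 0.74 ± 0.18 (SE; adjusted p = 0.384, limma). Cd44, a hyaluronan receptor that binds podoplanin, read 9.46, 9.47, 9.90, 8.12 and 9.90 in BA replicates 1 to 5, against 8.92, 8.55, 7.54, 7.87 and 8.40 in control replicates 1 to 5 (difference 1.11 ± 0.37, SE; adjusted p = 0.477, limma). BA replicate 4 was again the lowest BA mouse. The tetraspanin gene Cd9 and the radixin gene Rdx differed by -0.29 ± 0.28 and -0.13 ± 0.15.

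**Figure D4:**
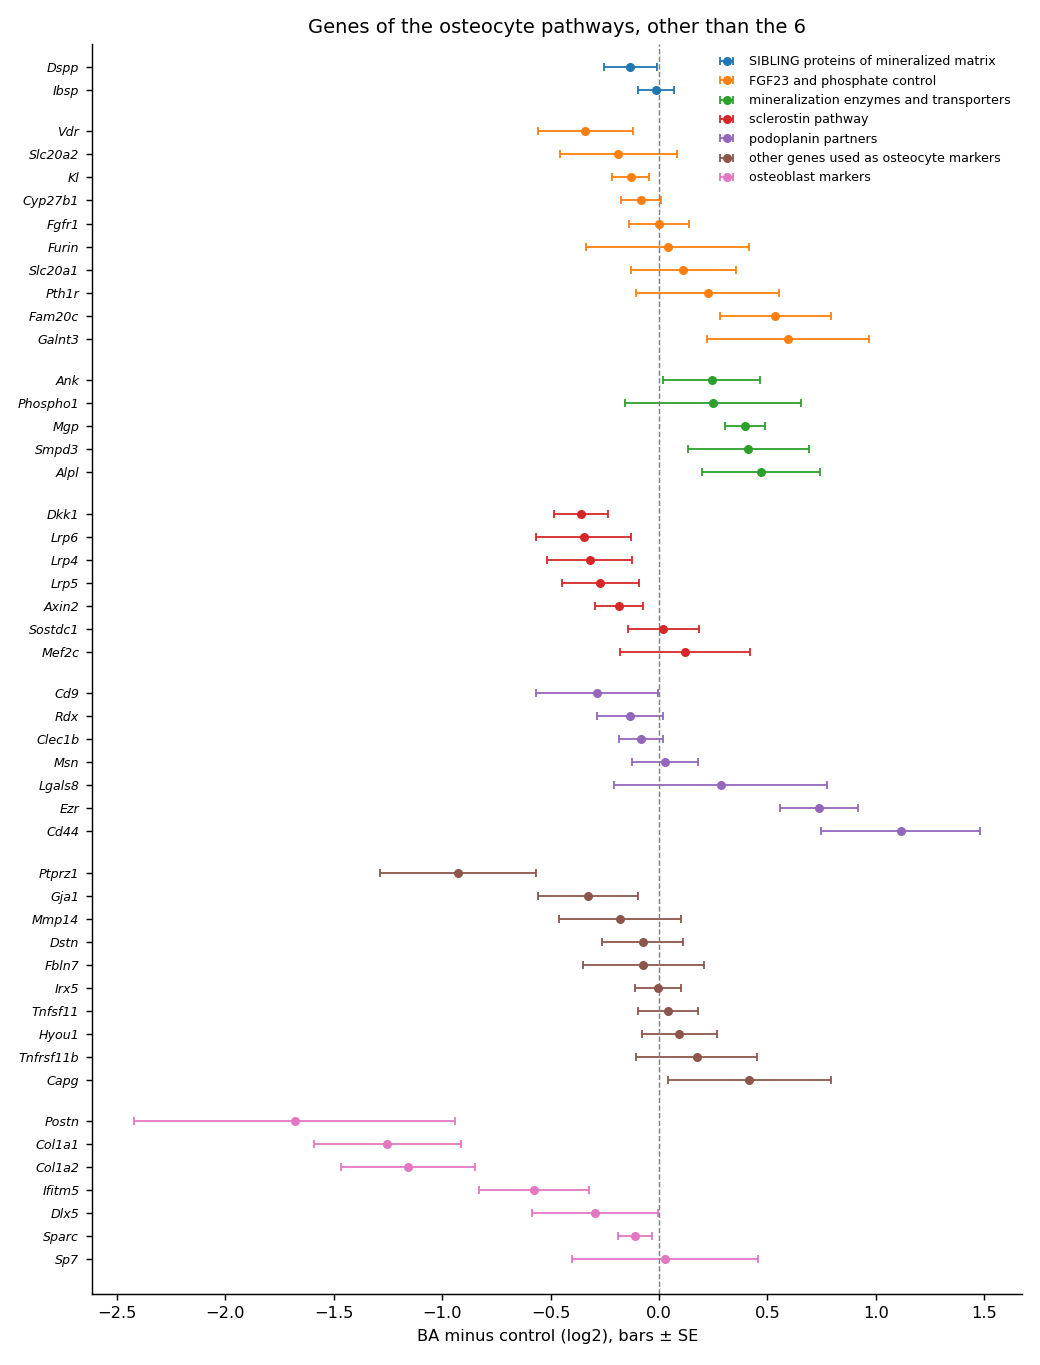
BA minus control difference (log2) of the measured genes of the osteocyte pathways other than the 6 osteocyte genes, grouped by list, each gene drawn once; points are limma differences and bars are ± SE. The differences of Postn, Col1a1, Col1a2 and Ptprz1 (lower on average in BA cells) and of Cd44 (higher on average) exceeded those of the other genes drawn in size.

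Of 10 other genes used as osteocyte markers, 4 averaged higher and 6 lower (median -0.04). Ptprz1, a receptor phosphatase, read 4.86, 4.37, 4.23, 5.38 and 3.92 in BA replicates 1 to 5, against 5.37, 4.49, 6.04, 6.22 and 5.27 in control replicates 1 to 5 (difference -0.93 ± 0.36, SE; adjusted p = 0.501, limma). BA replicates 1 and 4 lay within the control range and the other BA mice below it. Gja1, the gap junction protein of osteocyte networks, differed by -0.33 ± 0.23, the actin-capping gene Capg by 0.42 ± 0.38 and the membrane collagenase gene Mmp14 by -0.18 ± 0.28.

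Osteoblast markers describe the cells from which osteocytes form. Of 9 measured, 7 averaged lower (median -0.29), with 4 lower at an unadjusted p under 0.05, where 5.27% of all genes were, and 0 past the adjusted threshold (limma). Col1a2, the second chain of type I collagen, read 8.50 to 10.28 in BA mice and 10.49 to 10.78 in control mice, without overlap (difference -1.16 ± 0.31, SE; adjusted p = 0.388, limma). Ifitm5, a gene of mineralizing osteoblasts, read 6.48 to 6.83 and 6.84 to 8.30 in BA and control mice, apart by the smallest step of the values. Groups without overlap were found for 1.67% of all genes. Postn, periostin, averaged 9.01 ± 1.65 in BA cells and 10.69 ± 0.89 in control cells (SD, n = 5 each; adjusted p = 0.525, limma). As to the label of the cells, the mean of the 9 osteoblast markers lay between 8.95 and 10.15 in BA mice. In control mice it lay between 10.06 and 10.34. The mean of 11 chondrocyte markers lay between 10.17 and 10.69 in BA mice and between 9.88 and 10.62 in control mice. Ibsp and Sparc, the 2 brightest of the osteoblast markers, read 12.59 to 12.81 and 12.82 to 12.96 in BA mice. In control mice they read 12.65 to 12.85 and 12.89 to 13.09. The cartilage genes Sox9 and Acan read 11.35 to 11.52 and 11.22 to 11.54 in BA mice, and 11.07 to 11.49 and 11.14 to 11.48 in control mice. No detection calls were used, so the dimmer readings among the 6 osteocyte genes were not placed above or below background. Mepe averaged 3.82 over the 10 arrays. Fgf23 and Dmp1 averaged 6.19 and 6.33, near the median gene mean of 6.15.

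Markers of other cell types give the make-up of the sorted samples as far as the arrays show it. The mean of 10 pan-haematopoietic markers lay between 5.93 and 8.27 in BA mice and between 5.75 and 6.67 in control mice, with 8 of 10 genes higher on average and 0 listed at 0. The BA value of 8.27 was replicate 5, where Ptprc (CD45) read 9.29, against 5.54 to 5.90 on the other arrays. The mean of 10 neutrophil markers lay between 7.11 and 9.996 in BA mice and between 6.34 and 8.45 in control mice, with 10 of 10 higher on average (median 0.96) and 2 at an unadjusted p under 0.05, where 4.13% of all genes were higher. The BA value of 9.996 was again replicate 5, and the other BA mice lay between 7.11 and 8.73. The mean of 9 macrophage markers lay between 5.63 and 6.59 in BA mice and between 5.57 and 5.97 in control mice. Endothelial markers (8 measured) lay between 5.31 and 5.53 in BA mice and between 5.35 and 5.78 in control mice. Osteoclast markers (8 measured) lay between 5.76 and 6.20 in BA mice and between 5.80 and 6.09 in control mice. Smooth muscle and pericyte markers (7 measured) lay between 6.86 and 7.93 in BA mice and between 7.85 and 8.996 in control mice, with 6 of 7 lower on average (median -0.92) and 4 lower at an unadjusted p under 0.05, where 5.27% of all genes were lower. Of 11 chondrocyte markers, 9 averaged higher in BA cells (median 0.09), and of 4 measured erythroid markers all 4 averaged lower (median -0.31), with 0 genes of any of these marker lists past the adjusted threshold (limma). With the pan-haematopoietic mean as a covariate, the difference was -1.14 for Phex (unadjusted p = 0.0442, limma) and -0.36 for Dmp1 (unadjusted p = 0.070, limma). It was -0.26 for Fgf23 (unadjusted p = 0.0594, limma) and 1.58 for Pdpn (unadjusted p = 0.0390, limma). Over all genes, 727 were higher and 669 lower at an unadjusted p under 0.05 in that fit (limma). Only BA replicate 5 stood far from the rest in that covariate. The part of the other marker lists was not tested.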

How the data were processed

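RNA of 5 BA and 5 control mice was hybridised to Affymetrix Gene ST 1.0 arrays after amplification from 500 to 2300 sorted cells, per the labels' protocols. The authors deposited log2 values for 35557 probe sets, with 0 missing. GCRMA, which corrects background by probe sequence and normalizes across arrays, is named without a version in the submitters' processing notes. That the scale is log2 follows from the range, 1.21 to 13.7, and from that method. GCRMA compresses differences between dim readings. Precision is limited by the number of arrays.

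Of the probe sets, 21789 had 1 gene symbol, 1621 several and 12147 none. Each gene was represented by its probe set with the highest mean. BA and control arrays, grouped by their titles, were set against each other in limma 3.58.1 (R 4.3.3), two-sided, without covariates, adjusted over 19938 genes. Of these steps, only the limma fit was tested on simulated data, in which genes varied independently. Correlations across arrays used 100000 permutations in Python 3.11.15. Each mouse is 1 array, so p-values measure the spread between mice.

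Members and gene lists were chosen with earlier results of these data known. The genes named are the 6 and, from the pathway, osteocyte and osteoblast lists, up to 4 others apiece, taken in order of p from the smallest. Also named, for every gene of the 6 averaging above the median gene mean, are its 4 closest profiles. Mepe, below that level, has none. The remaining named genes, such as Sparc, Xist and the markers of other cell types, were picked without a fixed rule. Some markers with the smallest p of their list, such as Cxcr2 (neutrophil) and Myh11 (smooth muscle), are not described above. Some listed genes, such as Spp1 and Runx2, are not analysed here. Alternatives covered scaling, filtering, variance models, probe-set choice, covariates, a replicate block and leaving out each array.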

Additional observations from a re-analysis of the deposited data

Results flagged for a closer look

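Mepe on control replicate 5 read 4.93, against 3.70 to 3.77 on the other 4 control arrays. Its gap to the nearest array made up 0.943 of the range of the group, above Dixon's 95% critical value of 0.71 for 5 samples. Of 12 groups of values tested in this way (6 genes in BA and in control mice), 1 was picked out, and chance picks about 1 in 20.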

How the results depend on the processing

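None of the 6 genes passed the adjusted threshold under any alternative that gave a test. Phex, Dmp1 and Fgf23 stayed lower and Pdpn higher on average under all 23 alternatives. With the olfactory mean as a covariate, which itself differed between the groups, Mepe and Sost reversed, to 0.021 and 0.099. Within the high-Xist arrays the Mepe difference was -0.74, and -0.14 without control replicate 5 (an alternative chosen after seeing the data). The number of the 6 at an unadjusted p under 0.05 was 1 with the olfactory covariate, 1 with the replicate block (Phex, unadjusted p = 0.002, adjusted p = 0.442 with limma) and 0 to 4 with each array left out. Over all genes, 581 were higher and 415 lower at that threshold with the olfactory covariate, and 921 and 748 with the replicate block. Without either they numbered 824 and 1051. With each array left out, 625 to 1001 genes were higher and 676 to 1512 lower. The number of all genes past the adjusted threshold (limma) was 0 with the replicate block, 0 among genes above the median level, 0 with the pan-haematopoietic covariate, 2 with the Xist covariate, 0 with the olfactory covariate, and 0 to 13 with each array left out, the 13 without BA replicate 4. Same-numbered BA and control arrays deviated together in 1 of 5 pairs only (r from -0.10 to 0.11), and 3 of 10 arrays correlated best with their own number. These values gave no clear sign that the numbers pair the mice, but correlations of this kind cannot exclude a pairing. Mepe could not be tested among genes above the median level. With no detection calls, signal over background was not judged for dim genes such as Mepe, nor for Fgf23 and Dmp1.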
